A study of Mus musculus with 118 samples.

Results

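Ptprd, Ptprf, Ptprs, Ptprk, Ptprm, Ptprt, Ptpru and Ptprg, 8 of the 23998 gene symbols in the count table, encode receptor-type protein tyrosine phosphatases. They were chosen by their log2(CPM + 1) levels and detection by layer in these cells, so the levels and layer differences below are descriptions and carry no test. The cells came from adult SOM-Cre/Ai9 mice, in which neurons that express or once expressed somatostatin (Sst) are labelled with tdTomato, and the RNA of labelled SOM+ interneurons was collected by Patch-seq, that is, by drawing the contents of each recorded neuron into the recording pipette. No cell had a drug or a further genetic change in the labels. The groups were L4 and L5 of primary visual cortex (V1) and of primary somatosensory cortex (S1), with 44 V1 and 39 S1 cells labelled L4, and 19 V1 and 16 S1 cells labelled L5. A cell was kept where it had 1500 or more genes above 0, an Sst count, and a Slc17a7 count that did not exceed Gad1 and Gad2 together, which left 42 and 34 cells of L4 and 17 and 16 of L5. The labels name no animal, so each group is 1 sample, and spread is given over recording days. The mice used for Patch-seq were fewer than the 9 dates in the titles. The dates were read as recording days, which the labels do not state, and how they map to animals is not given. The days are therefore not taken as independent.

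Receptor-type phosphatases are single-pass membrane proteins, and most of them remove phosphate from tyrosine residues inside the cell. Their extracellular parts bind other cells, the matrix or cell-surface partners. Ptprd, Ptprf and Ptprs form the LAR family (type IIa), presynaptic adhesion proteins that bind postsynaptic partners such as the Slitrk proteins and that attach liprins on the inside. Ptprk, Ptprm, Ptprt and Ptpru form the MAM-domain family (type IIb), of which Ptprk, Ptprm and Ptprt are homophilic adhesion proteins of cell contacts. Ptprg is a type V member with a carbonic anhydrase-like domain that binds contactins.

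The catalytic cysteine lies in a short signature motif, and its coding sequence is shown because it is the part of these genes that the members share and by which they can be told apart. The motif searched was histidine, cysteine, any residue, alanine, glycine, any residue, glycine and arginine, in the longest annotated coding sequence of each gene. The 3 LAR-family genes held 2 matches each and the other 5 genes 1 match each. The first match of each gene is printed as coding sequence, 5′ to 3′, with the cysteine codon in capitals.
Ptprd: cacTGCagtgctggtgttggcaga
Ptprf: catTGCagtgcgggtgtggggcgc
Ptprs: cacTGCagcgcgggtgtggggcgc
Ptprk: cacTGCagtgctggtgctgggcgc
Ptprm: cacTGCagtgctggagcaggaagg
Ptprt: catTGCagtgctggagccgggagg
Ptpru: cacTGCagtgcaggaactggccgc
Ptprg: cacTGCagcgctggtgtgggcagg
Of the 24 positions, 14 held the same base in all 8 genes. Counted from 1 at the first base of the histidine codon, Ptpru differed from Ptprk by T12A, T15A, G16A and G21C, and position 16 was G in the other 7 genes and A in 1, Ptpru. Ptprd, Ptprf, Ptprs and Ptprg shared C17T against Ptprk, and Ptprm, Ptprt and Ptpru did not have it. An intron split all 11 windows found, so each genomic span below includes that intron. In GRCm38 (mm10), the Ptpru window lay at chr4:131776902-131779030, the Ptprd window at chr4:75957366-75981961 and the Ptprf window at chr4:118212234-118212334, all on the minus strand. The Ptprs window lay at chr17:56417496-56417598, the Ptprm window at chr17:66693583-66693779 and the Ptprt window at chr2:161555534-161558827, all on the minus strand. The Ptprk window at chr10:28580540-28585575 and the Ptprg window at chr14:12213799-12215203 lay on the plus strand.

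Total counts of kept cells ran from 97904 to 3295232. All 33 kept L5 cells fell in the first of 2 recording series (titles dated June or July), with 37 of the kept L4 cells. The other 39 L4 cells fell in the second series (titles dated September), so layers were compared within the first series. Of the SOM interneuron markers, Sst and Gad1 were detected in every kept cell and the other 5 (Gad2, Slc32a1, Sox6, Elfn1 and Lhx6) in at least 88 cells. Among markers of other cells, the summed excitatory neuron list (4 of 4 genes detected) had a median of 343 CPM in first-series L4 cells (range 7.56 to 1092) and 215 CPM in L5 cells (range 1.84 to 871). The microglia list (6 of 6 genes detected) had medians of 76.4 CPM (range 0 to 1332) and 15.2 CPM (range 0 to 2764), though pooled over cells it was at 196.5 CPM in L4 and 263 CPM in L5. The oligodendrocyte list (5 of 5 genes detected) had medians of 68.7 CPM (range 0 to 4922) and 162.5 CPM (range 0 to 5415). Pvalb, the fast-spiking interneuron marker, was at 31.9 and 6.49 CPM pooled over cells. The astrocyte list (5 of 5 genes detected) had a median of 0 CPM in both layers (ranges 0 to 3607 and 0 to 744). Pooled over cells it was at 108.7 CPM in L4 and 35.7 CPM in L5. In first-series L4 and in L5, areas together, at most 1 gene of the excitatory, microglia or oligodendrocyte list was present in 50% of the cells. Within S1 L4 and within S1 L5, 3 of the 5 oligodendrocyte genes were, and in second-series L4 cells 2 of the 6 microglia genes were. The part of these lists in the layer differences was not tested. Poisson intervals on pooled counts cover counting error only, since amplified reads that carry no molecular identifier are not independent molecules. Clopper-Pearson intervals on shares cover the counting of cells only and take cells as independent, which cells of 1 day or animal are not.

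Between layers, the members split into 2 that were lower in L5, Ptprd and Ptpru, 1 that was nearly absent from L4, Ptprk, and 5 whose means differed by less than 1 on the log2(CPM + 1) scale. CPM are counts scaled to an equal total in every cell, and 1 on this scale was the size used to name a difference. Of 8921 genes with at least 32 counts in at least 10 of the cells compared, 6.66% were lower in L5 by 1 or more and 15.6% were higher, and 7.69% were 1 or more apart and had 1 sign in all recording days. Ptpru had the same sign in 4 of 4 days. Ptprk did not pass this count filter, so that it is in none of these shares. Because the layer values chose the members, nothing is read from these counts. The median difference over all genes was 0.19.

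**Figure D1:**
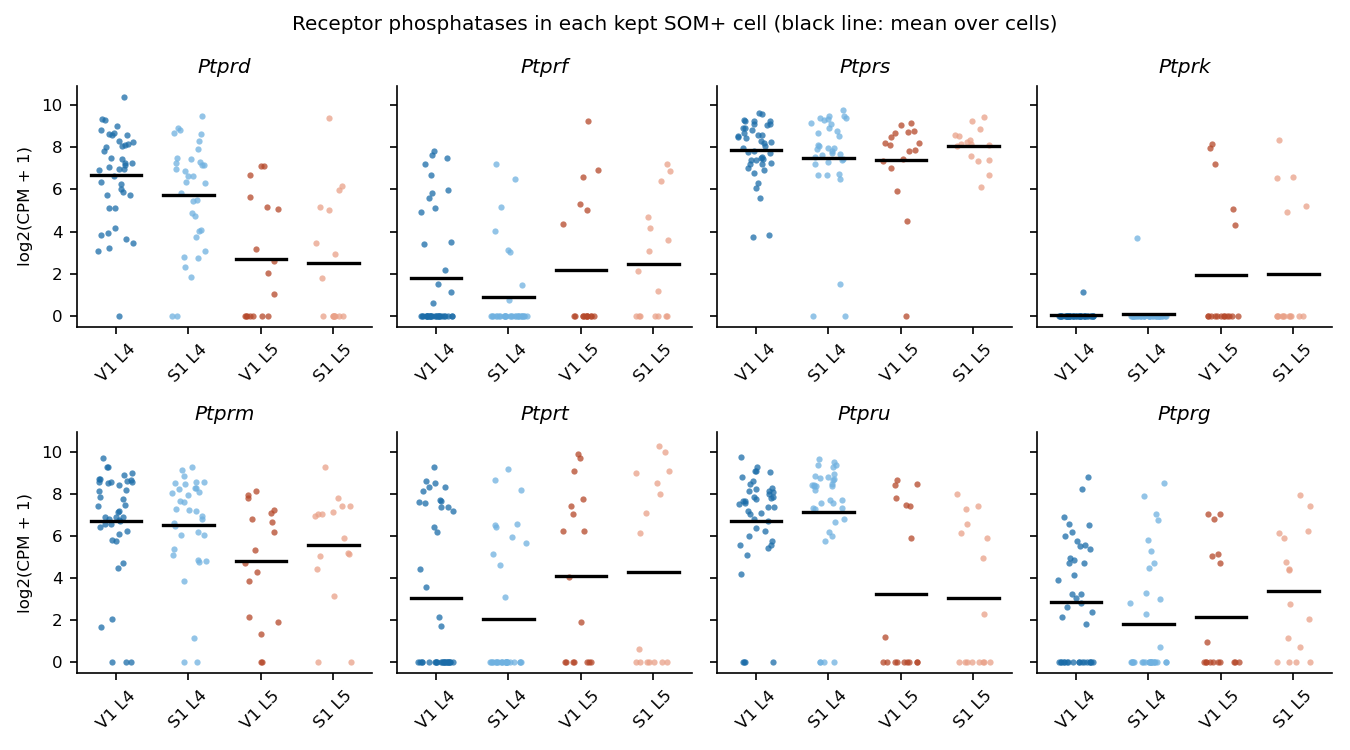
Level of each member in every kept cell, as log2(CPM + 1) on the vertical axis, with 1 point per cell, the 4 groups on the horizontal axis and the mean over cells as a black line. Points of Ptprd and Ptpru crowd at 0 in L5 and not in L4, while Ptprk is above 0 in 2 of 76 L4 cells and 10 of 33 L5 cells.

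Ptprd, a LAR-family organizer of synapses, was present in almost every L4 cell and in 54.5% of L5 cells. In first-series L4 cells its lowest, median and highest values were 4.00, 123.3 and 726 CPM, and in L5 cells 0, 2.47 and 674 CPM. It was detected in 37 of 37 first-series L4 cells and in 18 of 33 L5 cells (95% Clopper-Pearson interval 36.4% to 71.9%). The ranges of the layers overlapped, and most L5 cells lay below the L4 median. Mean log2(CPM + 1) was 6.64 in L4 and 2.59 in L5, a difference of -4.04 with an SD of 2.79 over 4 recording days. The difference was -4.06 in V1 and -4.00 in S1. By day Ptprd was -6.15, -3.08 and -3.48 on days 3, 4 and 5, and 0.62 on day 6, which held 2 L4 cells. Where it was detected, its median was 123.3 CPM in L4 and 33.9 CPM in L5, so that both the share of cells and the level in those cells were lower in L5. In S1 L5, 1 cell gave 69.8% of the Ptprd counts.

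Ptprs, the LAR-family member that also binds heparan and chondroitin sulphate proteoglycans, was at similar levels in both layers. Its lowest, median and highest values were 1.85, 252 and 762 CPM in first-series L4 cells and 0, 281 and 690 CPM in L5 cells. The ranges lay almost on top of each other, and the gene was detected in 37 of 37 and 32 of 33 cells. The difference of means was -0.11 with an SD of 0.37 over days. This difference was smaller than its spread.

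Ptprf, the LAR protein itself, was detected in fewer than 50% of the cells of each layer. It was found in 14 of 37 first-series L4 cells, with a highest value of 199 CPM, and in 15 of 33 L5 cells, with a highest value of 610 CPM, and its median was 0 in both. The mean difference was 0.65 over all first-series cells, which include days 1 and 2 with L4 cells only. Within the 4 days that held both layers, the mean of the differences was 1.72 with an SD of 1.12, and the sign was positive in 4 of 4 days. The call of 1 or more thus depended on which L4 cells entered. In V1 alone the difference was 0.004 with an SD of 0.90 over 2 days. In S1 alone it was 1.47 with an SD of 2.95, from -1.96, 3.07 and 3.24 on days 3, 4 and 5. The sign thus changed between days within S1.

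Ptpru, whose window above carries G16A, differed between layers by a size near that of Ptprd. Its lowest, median and highest values were 0, 187 and 719 CPM in first-series L4 cells and 0, 0 and 406 CPM in L5 cells. It was detected in 33 of 37 L4 cells (89.2%, interval 74.6% to 96.97%) and in 16 of 33 L5 cells (48.5%, interval 30.8% to 66.5%). The ranges of the layers overlapped, and most L5 cells with a count lay within the range of the L4 cells with one. Mean log2(CPM + 1) was 6.80 in L4 and 3.15 in L5, a difference of -3.65 with an SD of 2.40 over days. The difference was -3.05 in V1 and -4.42 in S1. By day it was -5.72, -4.32 and -4.69 on days 3, 4 and 5, and -0.25 on day 6. Where Ptpru was detected its median was 202 CPM in L4 and 160 CPM in L5, a smaller gap than that of Ptprd, so the layers stood apart mainly in the share of cells with the gene. Thinning every cell to 250000 reads left 33 of 37 L4 cells and 14 of 30 L5 cells with a count. In second-series L4 cells the median was 268 CPM and the gene was detected in 35 of 39 cells.

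Ptprk, a homophilic adhesion receptor, was detected mainly in L5 cells. It had 1 count in 1 of 37 first-series L4 cells, and 1951 counts in 10 of 33 L5 cells (30.3%, interval 15.6% to 48.7%). The median was 0 CPM in each layer, and the highest cell was at 1.17 CPM in L4 and 323 CPM in L5. Pooled over cells, its level was 0.0220 CPM in L4 (Poisson interval 0.000557 to 0.123) and 50.4 CPM in L5 (48.2 to 52.7). The mean difference on the log2(CPM + 1) scale was 1.92 with an SD of 1.05. It was 3.33, 1.04, 1.21 and 2.17 on days 3 to 6, 1.87 in V1 and 1.98 in S1. A single cell gave 30.7% of the L5 counts. In the second series, Ptprk had 14 counts, all in 1 of 39 L4 cells.

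Ptprm, another homophilic member, had layer differences that were alike from day to day with the areas together, but not within either area. Its lowest, median and highest values were 0, 103.4 and 504 CPM in first-series L4 cells and 0, 58.5 and 615 CPM in L5 cells. The layers overlapped over nearly the whole range, with 34 of 37 and 29 of 33 cells detected. The mean difference was -0.68 with an SD of 0.08 over days, and the days gave -0.89, -0.73, -0.73 and -0.84. In V1 alone it was -1.05 with an SD of 3.59, from -3.96 and 1.11 on days 3 and 5, and in S1 alone -0.27 with an SD of 2.72, from 2.33, -0.91 and -3.07 on days 3, 4 and 5. The sign thus changed between days within each area. Thinned to equal reads the difference was -0.38, a move larger than that SD. The recording series differed more than the layers did. Second-series L4 cells had a median of 283 CPM and a mean log2 value 1.54 above that of first-series L4 cells, by 1.72 in V1 and 1.32 in S1. Set against second-series L4 cells, the layer difference cannot be told apart from that of the series.

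Ptprt, the brain-enriched member of the MAM-domain family, had the largest SD over cells among the members, 3.56 in first-series L4 and 4.15 in L5 on the log2 scale. Its lowest, median and highest values were 0, 2.28 and 616 CPM in first-series L4 cells and 0, 15.7 and 1229 CPM in L5 cells. It was detected in 19 of 37 and in 19 of 33 cells. The mean difference was 0.93 over all first-series cells and 1.76 within days, with an SD of 2.41 over days, and it was 2.30, -0.60, 0.45 and 4.89 by day. In S1 alone it was 1.78 with an SD of 0.70 over 3 days, and in V1 alone 0.26 with an SD of 3.04 over 2 days. Whether the areas differ in this was not tested. Ptprt was also lower in second-series L4 cells than in first-series ones, by a difference of -1.26, with 11 of 39 cells detected.

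Ptprg, the contactin-binding member, did not separate the layers. Its lowest, median and highest values were 0, 2.52 and 360 CPM in first-series L4 cells and 0, 1.24 and 246 CPM in L5 cells, with 20 of 37 and 19 of 33 cells detected. The difference was 0.33 with an SD of 2.23 over days.

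**Figure D2:**
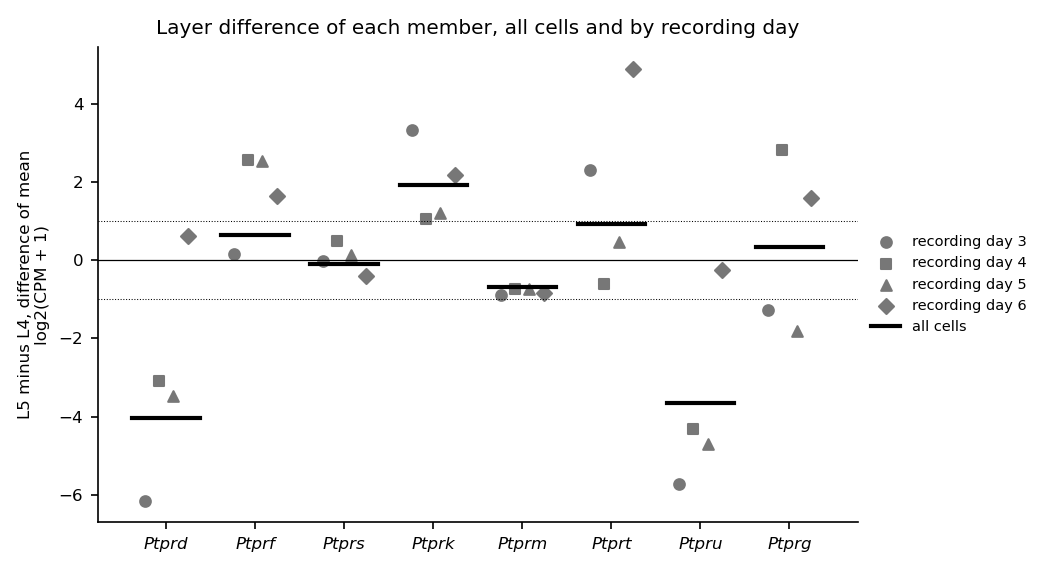
Difference of mean log2(CPM + 1), L5 minus L4, for each member, with a symbol for each of recording days 3 to 6, a black bar for all first-series cells together and dotted lines at 1 and -1. The 4 days of Ptprm lie between -0.89 and -0.73, whereas those of Ptprd run from -6.15 to 0.62.

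The study set V1 against S1 to ask whether SOM+ cells of the same layer differ by area. In L4, 1 of the 8 members differed by 1 or more, Ptprg at -1.02 (S1 minus V1) with an SD of 1.88 over 5 days, beside 15.8% of 9201 genes tested in either direction. Ptprg was detected in 25 of 42 V1 and 13 of 34 S1 cells, with highest values of 440 and 360 CPM. In the first series its area difference was 0.17 and in the second -2.14, so that the pooled value rested on the second series. Without day 8 the pooled value was -0.33. That day held 9 V1 and 2 S1 cells, and 1 of the S1 cells had no count of any member. Ptprt differed by -0.996, just under the size used, with an SD of 3.06, and Ptprd by -0.94 with an SD of 3.08. Ptprf differed by -0.90 with an SD of 0.76, the one member whose L4 area difference was larger than its spread. It was detected in 16 of 42 V1 and 8 of 34 S1 cells, and it did not pass the count filter. Ptpru differed by 0.41 with an SD of 1.87, being 1.15 in the first series and -0.30 in the second. Ptprs, Ptprm and Ptprk differed by -0.37, -0.17 and 0.08.

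In L5, Ptprg differed by 1.21 (S1 minus V1) with an SD of 2.22 over 4 days, beside 33.6% of 6402 genes that differed by 1 or more in either direction. The value rested on day 3, at 4.33, beside 0.03, -0.47 and 0.26 on days 4, 5 and 6, and it was 0.13 without day 3. Ptprg was detected in 7 of 17 V1 and 12 of 16 S1 cells. Its L5 sign was that of first-series L4 cells and opposite to that of L4 cells of both series together. The other members differed by -0.22 for Ptpru, -0.19 for Ptprd, 0.05 for Ptprk, 0.21 for Ptprt, 0.26 for Ptprf, 0.68 for Ptprs and 0.77 for Ptprm, each less than its SD over days. The oligodendrocyte markers moved with area: their summed median was 70.0 CPM in V1 L4 (range 0 to 3717) and 628 CPM in S1 L4 (range 0 to 9510.45), and 111.2 and 312 CPM in V1 and S1 L5 (ranges 0 to 3870 and 0 to 5415). Of the 5 markers, 4 were detected in each V1 group and 5 in each S1 group, and their part in the area differences was not tested.

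**Figure D3:**
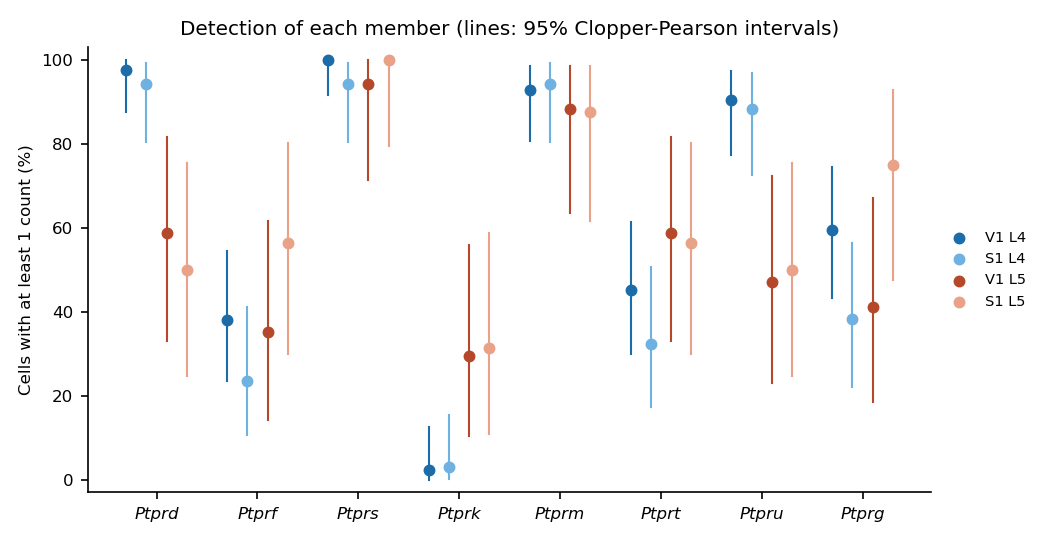
Percentage of kept cells with at least 1 count of each member in the 4 groups, with 95% Clopper-Pearson intervals as lines. Ptprd stood at 97.6% and 94.1% in V1 and S1 L4 and at 58.8% and 50% in V1 and S1 L5. Ptprg stood at 59.5% and 38.2% in V1 and S1 L4 and at 41.2% and 75% in V1 and S1 L5.

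Levels of different genes were compared only per transcript length, on the deposited RPKM values (reads per kilobase of transcript, scaled to the total reads of the cell). In L4, over 76 cells, mean RPKM was 58.4 for Ptprs, 47.9 for Ptpru, 39.4 for Ptprm, 20.7 for Ptprd, 6.04 for Ptprt, 3.81 for Ptprg, 2.50 for Ptprf and 0.0308 for Ptprk. Of the steps between neighbours in this order, only that from Ptprd to Ptprt, 14.7 RPKM with an SD of 11.4 over 9 days, was larger than its spread. In L5, over 33 cells, the order was Ptprs at 53.4, Ptprm at 18.6, Ptprt at 17.8, Ptpru at 14.5, Ptprk at 6.49, Ptprd at 4.93, Ptprf at 4.78 and Ptprg at 3.93. Here only the step from Ptprs to Ptprm, 34.8 RPKM with an SD of 6.03 over 4 days, exceeded its spread. The L4 values pool both recording series, whereas all L5 cells are of the first. In first-series L4 cells alone, mean RPKM was 54.1 for Ptprs, 40.3 for Ptpru, 24.3 for Ptprm and 21.1 for Ptprd, and in second-series cells 62.4, 55.2, 53.8 and 20.3. With the areas together, Ptprs thus came first in L5 and in L4 cells of each series. By area it came first in first-series V1 and second-series S1 L4 cells, at 57.8 and 69.0. In first-series S1 L4 cells Ptpru was at 52.2 and Ptprs at 49.3, and in second-series V1 L4 cells Ptprm was at 58.6 and Ptprs at 56.7.

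**Figure D4:**
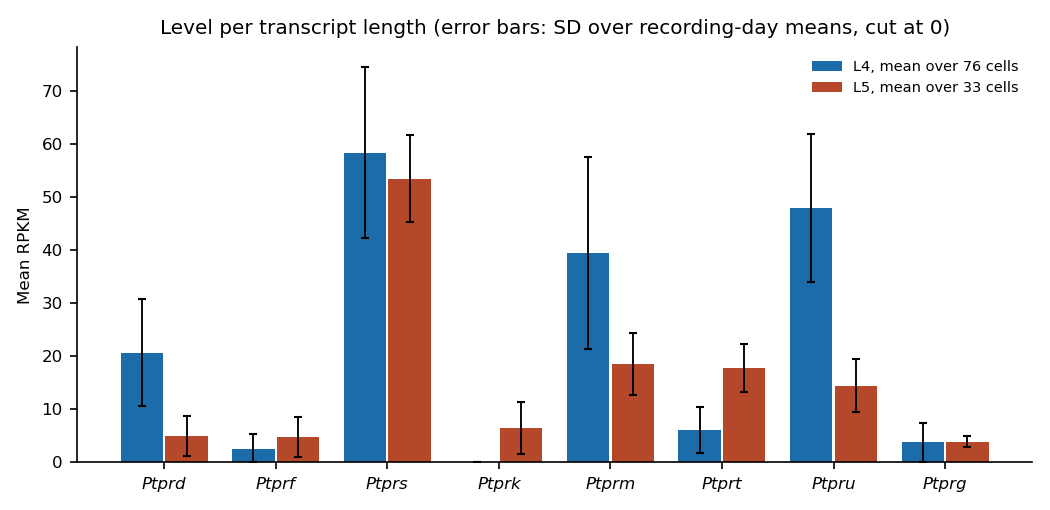
Mean deposited RPKM of each member in L4 (76 cells) and L5 (33 cells), with the SD over recording-day means as error bars, cut off at 0. Ptprs is the tallest bar in both layers, at 58.4 and 53.4 RPKM.

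Ptprd and Ptpru tended to be present or absent in the same L5 cells. Of 33 L5 cells, 15 had both, 14 neither, 3 only Ptprd and 1 only Ptpru, and in S1 L5 the split was 8 with both and 8 with neither. In L4, 66 of 76 cells had both and 1 had neither. The Pearson r of the pair, on log2(CPM + 1), was 0.85 over the 33 L5 cells and 0.18 over the 76 L4 cells, and 0.61 over both layers. Cells share recording days and animals, and in L5 the value mostly sets cells at 0 apart from the rest. Ptprk was found without either gene in 5 L5 cells and with at least 1 of them in 5. Among the 10 L5 cells with Ptprk, 9 also had Ptprt, and the r of that pair was 0.45 in L5.

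**Figure D5:**
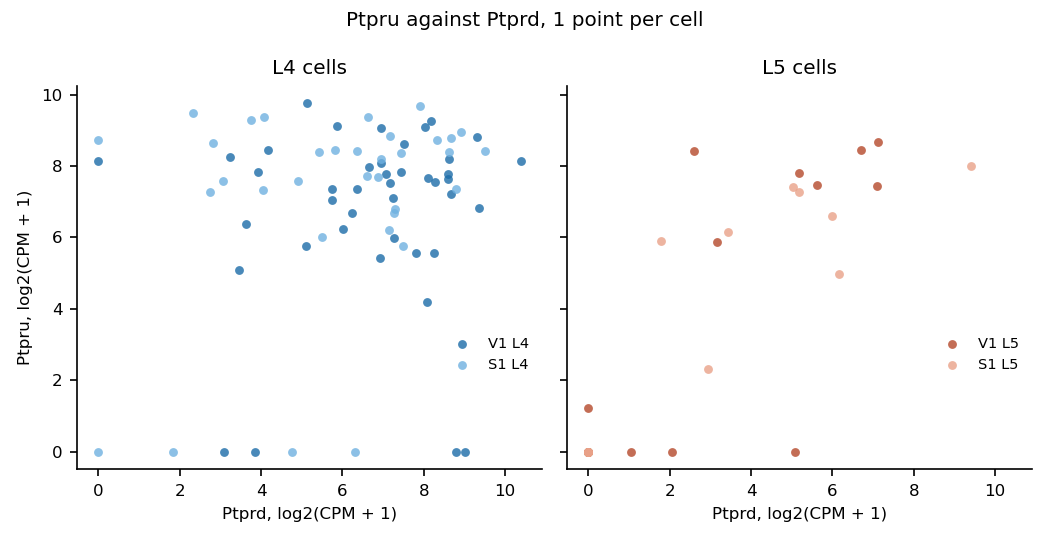
Ptpru against Ptprd, both as log2(CPM + 1), in L4 cells (left) and L5 cells (right), with 1 point per cell coloured by area. In L5, 14 cells lie on top of each other at the origin and 15 have both genes, whereas 66 of 76 L4 cells have both.

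Over all kept cells, Ptprd ranked second in likeness to Ptpru among 9992 genes. Both genes were lower in L5 and were chosen by layer values, so the rank in part repeats that choice and is a description only. The kept cells include 39 second-series L4 cells, which have no L5 cells of their series beside them. Pearson r with Ptpru was 0.62 for Col11a1, a fibrillar collagen chain, 0.61 for Ptprd, 0.49 for Chrna4, a nicotinic receptor subunit, 0.49 for Dmd, which encodes dystrophin, and 0.47 for Frmd6. The lowest values were -0.63 for Crh, the corticotropin-releasing hormone, -0.49 for Unc5d, a netrin receptor family member, and -0.48 for St6galnac5, a sialyltransferase. Within L4 r was 0.42 for Col11a1, 0.18 for Ptprd, 0.24 for Chrna4, 0.16 for Dmd, 0.29 for Frmd6 and -0.12 for Crh, and near 0 and of the other sign for Unc5d (0.05) and St6galnac5 (0.07). Within L5 it was 0.65 for Col11a1, 0.85 for Ptprd, 0.72 for Chrna4, -0.70 for Crh and -0.50 for both Unc5d and St6galnac5.

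Other genes of the same pathways were counted from lists of further receptor-type phosphatases, LAR-family ligands, partners at the junction (liprins, Trio, catenins and N-cadherin) and contactins. Their counts stand beside the 6.66% of all 8921 genes that were lower in L5 by 1 or more and the 15.6% that were higher, and with so few genes nothing is read from them. Of 13 further receptor-type phosphatases, 8 passed the count filter between layers, and 2 of these were lower in L5 by 1 or more and none higher. With the areas together, the one with the same sign in every day was Ptpre, a phosphatase with a short extracellular part. It was at -1.35 with an SD of 0.23 over 4 days. In V1 alone Ptpre was at -1.35 with an SD of 1.88 over 2 days. In S1 alone it was at -1.32 with an SD of 1.96 over 3 days, which ran from -2.32 to 1.35. It did not pass the count filter within either area. Of 13 LAR-family ligands, 8 passed, with 1 higher and 1 lower. Slitrk1, a postsynaptic ligand of Ptprd and Ptprs, was higher in L5 by 1.56 with an SD of 1.33, positive in 4 of 4 days. Of 11 partners, 9 passed and 2 were higher. Ctnnb1 (beta-catenin) was at 1.51 with an SD of 3.19 and Cdh2 (N-cadherin, itself a membrane protein) at 1.24 with an SD of 1.20. They were positive in 2 and 3 of 4 days, and Cdh2 was at 2.29 in V1 and -0.23 in S1. Ptprz1, at -1.37 with an SD of 1.99, and Slitrk3, at -1.15 with an SD of 2.55, were negative in 3 of 4 days. All of these were named after their values were seen. Of the 4 contactins all passed and none reached 1. The median differences of these lists were 0.64, 0.01, 0.08 and 0.04, beside 0.19 over all genes and -0.11 over the 7 members past the filter.

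Between areas, few genes of these lists kept their sign in every day. In L4, Ctnnd1, the p120 catenin, was lower in S1 by a difference of -1.08 with an SD of 1.20 over 5 days. Its days ran from -2.99 to -0.003, so that the sign of the last was hardly apart from 0. In L5, Ppfia4, a liprin, was higher in S1 by 1.90 with an SD of 1.76, and Ptpro by 1.70 with an SD of 1.59, each positive in 4 of 4 days. Ptpro did not pass the count filter.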

How the data were processed

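RNA of single SOM+ cells was measured by Patch-seq in 118 samples of 1 cell each. The authors aligned reads to mm10 with STAR 2.4.2a and deposited raw counts per gene; the counting tool and its use of strand are not given in the sources used here. The deposited RPKM values were computed by the authors with rpkmforgenes and RefSeq models. Entries sharing a symbol were summed (24490 entries, 23998 symbols), and each member was 1 entry. Exons of Ptprd, Ptprm and Ptprg overlapped other genes by 7, 457 and 50 bases, so those reads are uncertain. Coding sequences came from the GENCODE annotation of GRCm38, the build of mm10. Of 118 cells, 4 had under 1500 genes, 1 was glutamatergic and 4 lacked Sst counts, and 0 pairs held identical counts. Each cell had its own pipette, and no doublet caller was run.

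Values were log2(CPM + 1), with a pseudocount of 1, computed with Python 3.11.15, NumPy 2.4.6 and pandas 2.3.3. The computation of differences was checked on simulated counts without day or area effects, so the check covers the computation only. As an alternative, edgeR 4.0.16 gave TMM sizes. The date in each title was read as the recording day (9 days). Differences within days used days with at least 2 cells of each arm. Thinning drew 250000 reads, with seed 1. Levels were compared without a test, since a group is 1 sample. All members are named, with listed genes past 1 and of 1 sign in every day, and the 5 highest and 3 lowest correlations with Ptpru. Between layers, listed genes past the filter and past 1 that changed sign between days were named after their values were seen. Members and lists were chosen with earlier results of these data known.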

Additional observations from a re-analysis of the deposited data

Results flagged for a closer look

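Some members were also measured in cells that the comparisons leave out, at levels above the limit that a count of 0 allows. In the 4 S1 L4 cells without an Sst count, pooled Ptprd was at 145.6 CPM, Ptprs at 474, Ptprm at 312 and Ptprg at 23.4, beside 120, 308, 198 and 19.5 CPM in the kept S1 L4 cells. Ptpru was at 26.7 CPM there, with counts in 1 of 4 cells, beside 279 CPM in the kept cells. The paper also left out fast-spiking cells without Sst reads, which it mapped to a Pvalb transcriptomic type. Those cells make up most of these 4, and the labels do not say which they are. The values of the 4 cells are thus not levels of SOM+ cells alone. In the 1 V1 L5 cell with more Slc17a7 than Gad1 plus Gad2 counts, Ptprd was at 501 CPM, Ptprs at 711, Ptprk at 136.9, Ptprt at 265 and Ptpru at 211, beside 40.9, 274, 48.4, 148.7 and 133.99 CPM pooled over the kept V1 L5 cells. Both sets are too small to set against a spread.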

How the results depend on the processing

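The Ptpru layer difference stayed negative and over 1 in size under every alternative run. It was -7.56 as a difference of medians, because the L5 median was 0, and it ran from -4.20 to -3.03 with 1 recording day left out. Of 376 recomputed differences of the members, 363 moved by less than the SD over days, 12 moved by more and 1, Ptprg between areas in L4, was 1 or more in size and changed sign, at 0.17 in the first series alone. With Ptpru by layer included, 32 of 392 recomputed values had the opposite sign, and in the other 31 the main difference was below 1, among them Ptpru between areas in L4. The number of members with a layer difference of 1 or more was 3, and it was 5 for the mean within recording days (Ptprf and Ptprt added), 4 with a pseudocount of 0.1, with cells without Sst or as the mean of V1 and S1 (Ptprt added), 3 for medians with Ptprt in place of Ptprk, and 3 to 5 with 1 day left out, 5 without day 2. Between areas in L4 the number was 1. It was 2 without Rn45s in the totals, 2 when thinned, 4 with a pseudocount of 0.1, 0 with a pseudocount of 10, 0 on RPKM, 3 in the first and 2 in the second series (both added after seeing the data). With 1 day left out it was 0 to 4, being 0 without day 9, 4 without day 3, 3 without day 7 and 2 without day 2 or day 8. Ptprg was under 1 in size without day 5 (-0.999), day 6 (-0.99), day 8 (-0.33) or day 9 (-0.85). The 1 member counted was Ptprd for the mean within recording days and Ptprt with cells without Sst. In L5 the number was 1, and it was 0 with a pseudocount of 10, 0 on RPKM and 5 for medians. It ran from 1 to 3 with 1 day left out, being 3 without day 4 or day 5, 2 without day 6, and 1 without day 3, then Ptprf and not Ptprg (0.13). Without the count filter, 12.6%, 8.90% and 21.1% of genes differed by 1 or more between layers, between areas in L4 and between areas in L5. Of 64 detection shares recomputed, 62 stayed within their interval. The replicate numbers only name cells and pair none, and the mean within recording days is the comparison that holds the day fixed. Depth limits genes seen at 1 count in a cell, such as Ptprk in the 1 first-series L4 cell that had it. Thinned to equal reads, Ptprk was detected in 0 of 37 first-series L4 cells and 10 of 30 L5 cells.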

Other observations

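The number of members detected per cell was close to 5 in each group. In L4 it averaged 5.26 in V1 (SD over cells 0.912) and 4.68 in S1 (SD 1.32). In L5 it averaged 4.53 in V1 (SD 1.42) and 5.06 in S1 (SD 1.88). All 8 members were found together in at least 1 S1 L5 cell, and none in 1 S1 L4 cell. Among the other pairs, Ptprk and Ptpru had a Pearson r of -0.43 over the 33 L5 cells, Ptprt and Ptpru -0.38, and Ptprd and Ptprm 0.33, while over the 76 L4 cells Ptprs and Ptpru had an r of 0.38. These are descriptions over cells that share recording days and libraries of varying depth.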
